A study of Mus musculus with 2 samples.

Results

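Lef1, Tcf7, Satb1, Tox, Sox4, Bach2 and Bcl11b were followed as a set of 7 transcription and chromatin regulators that are known from immature thymocytes. They were chosen by name from the 32285 genes in the deposited matrix, with earlier results of these data known. Counts of members beside the share of all genes are therefore descriptions. All 7 passed the filter on low values. The matrix holds 16179 barcodes of 1 pooled droplet library of mouse thymocytes read from the 5′ end of transcripts. The cells came from 2 genotypes on the C57BL/6 background, Ctrl and T-KO, and 4 thymi of each were pooled before sorting. In T-KO, Kidins220, the gene of a scaffold protein that binds the T cell receptor, carries floxed alleles that are deleted by Cre under the proximal Lck promoter, so the deletion is limited to T lineage cells. Each genotype was sorted into CD24+ NK1.1- cells labelled stage 0 and CD24- CD44+ NK1.1+ cells labelled stage 3, both gated as TCRβ+ and binding CD1d tetramer. The paper reports that its first clustering also held B cells, myeloid cells, double-positive and double-negative thymocytes, which it removed. It proposes that a poor tetramer stain in that sort might explain the thymocytes. Such clusters were not removed here. Each sort was done on 2 parallel replicas and each of the 8 populations had its own hashtag antibody. The age of the mice used here is not given separately in the sources.

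Nothing in the sources used here pairs the 8 hashtag rows that carry counts, numbered 11 to 18, with these populations. The rows are therefore given by number only, and Ctrl and T-KO were not compared. Of 12147 barcodes that passed the filters on genes and mitochondrial counts, 10007 were assigned to a row, 4249 to the odd rows 11, 13, 15 and 17 and 5758 to the even rows 12, 14, 16 and 18. Odd-row cells were divided by the first rule they met: at least 2 UMIs of Cd79a (810 cells), at least 5 of Cst3 (972), at least 1 of Rag1 (418), at least 2 of Ikzf2 (1106), and the rest (943). These compartments are named by the gene that set them. Levels are CPM, the UMIs of a gene scaled to the same total of gene UMIs in each group of cells. All rows share 1 library, so no test was made. Intervals in brackets or bars are exact Poisson 95% intervals and cover counting error only.

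Tcf7 and Lef1 encode HMG-box proteins that bind the same DNA core and act with β-catenin and with Groucho/TLE corepressors. Together they support T lineage development up to and through the double-positive stage. Tox and Sox4 are further HMG-box genes, and both have roles in the development of CD4 and innate-like T cells. Satb1 encodes a protein that organises chromatin loops in thymocytes. Bcl11b encodes a zinc finger factor that fixes T lineage identity, and Bach2 encodes a bZIP repressor that restrains effector genes in T and B cells.

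In GENCODE M21, on GRCm38 (mm10), Lef1 lies at chr3:131110471-131224356 on the plus strand and Bach2 at chr4:32238804-32586108 on the plus strand. The other 5 lie on the minus strand, Tox at chr4:6686353-6991557, Tcf7 at chr11:52252371-52283014, Bcl11b at chr12:107910403-108003602, Sox4 at chr13:28948919-28953713 and Satb1 at chr17:51736187-51833290. An antisense gene that the deposited matrix calls Lef1os1, at chr3:131109026-131112090 on the minus strand, overlaps the first 1620 bases of Lef1. Annotated transcripts on the opposite strand also overlap parts of Tcf7, Sox4 and Bach2. Whether counting used the strand is not stated in the sources used here, so reads in such overlaps cannot be told apart by gene with certainty.

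RefSeq sequences upstream of a transcription start were available for 6 of the 7 genes. The 250 bases before the first listed start are shown for Sox4, whose ratio between the odd and even rows was the largest of the 7, for Lef1, where the window lies inside the antisense gene, and for Satb1, whose level did not separate these rows. Capitals mark CTTTG or its complement CAAAG, the core that TCF and LEF proteins bind. The windows are chr13:28953700-28953949 (minus strand), chr3:131110047-131110296 (plus strand) and chr17:51833291-51833540 (minus strand) of GRCm38.p6, in this order.
Sox4: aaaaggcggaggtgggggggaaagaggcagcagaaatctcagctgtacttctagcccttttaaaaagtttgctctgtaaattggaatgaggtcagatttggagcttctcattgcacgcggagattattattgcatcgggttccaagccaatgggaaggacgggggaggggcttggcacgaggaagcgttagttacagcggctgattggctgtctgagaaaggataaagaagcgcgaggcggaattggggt
Lef1: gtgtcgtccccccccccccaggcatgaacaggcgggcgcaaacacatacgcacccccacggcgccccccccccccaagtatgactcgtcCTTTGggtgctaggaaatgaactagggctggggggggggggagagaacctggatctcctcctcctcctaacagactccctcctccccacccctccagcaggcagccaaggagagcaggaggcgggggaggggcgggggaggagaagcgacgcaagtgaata
Satb1: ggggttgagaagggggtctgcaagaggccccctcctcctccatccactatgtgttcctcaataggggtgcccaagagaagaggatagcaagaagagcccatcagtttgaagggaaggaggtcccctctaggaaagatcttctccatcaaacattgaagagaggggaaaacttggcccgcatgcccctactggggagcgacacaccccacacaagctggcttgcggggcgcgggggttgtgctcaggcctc
The core was present on either strand in 3 of the 6 members with a window, Lef1, Bach2 and Bcl11b, and in 48.8% of the 27025 genes with such a window. The Bach2 window, chr4:32417185-32417434, lies inside Bach2 as placed above, and the Tcf7 window holds coding sequence. The Bcl11b window, chr12:108003415-108003664, runs into Bcl11b as placed above, and its core lies in that part. The end of the Sox4 window runs into Sox4 likewise. Only the first listed start of each gene was searched, so the count is not read as promoter content. The core followed by 2 bases that are each A or T was present on either strand in 1 member, Bcl11b, and in 14.9% of all genes. G and C made up 66.4% of the Lef1 window, 50.8% of that of Sox4 and 58.0% of that of Satb1.

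The cell populations were first set against their markers. In the even rows Klrb1c, which encodes NK1.1, ranged from 328 to 444 CPM and Cd24a from 23.3 to 34.2 CPM. In the Ikzf2 compartment Klrb1c ranged from 5.11 to 10.2 CPM and Cd24a from 292 to 368 CPM. All 7 markers of stage 3 iNKT1 cells were at least 2-fold lower in the Ikzf2 compartment than in the even rows with no overlap of rows, beside 9.23% of the genes tested. Of 6 stage 0 markers 5 were higher there, beside 13.8% of genes, among them Ikzf2, which set the compartment. Several markers of other thymocytes were higher as well. Of 7 double-positive markers Cd8a, Cd8b1, Dntt, Ccr9 and Arpp21 were higher, while Cd4 and Rag1 were lower. Cells with a Rag1 UMI had been taken out by the earlier rule. Kit and Ptcra were higher among 4 of double-negative cells, and Trdc among 2 of gamma-delta T cells. The remaining stage 0 marker, Trav11, encodes the variable segment of the invariant receptor of iNKT cells. It had 989 UMIs (48.3 CPM) in the even rows but 5 UMIs (0.583 CPM) in the Ikzf2 compartment, 4 in the Rag1 compartment and 6 in the rest. The label of an iNKT cell was therefore not borne out by this transcript in these odd-row compartments, which are called by their rules. In the Rag1 compartment 6 of 7 markers of double-positive thymocytes that passed the filter were higher than in the even rows, beside 16.7% of genes. Rag1 among them was the rule itself. Kit, Ptcra and Notch1, 3 of 4 markers of double-negative cells, were also higher there, and so was Trdc. Of 6 stage 0 markers Cd24a, Ldhb and Ikzf2 were higher, while Egr2, Itm2a and Trav11 were lower, beside 17.8% of genes. The median number of UMIs per cell was 3400.5 in the even rows, 13562 in the Rag1, 5517.5 in the Ikzf2 and 4159 in the rest compartment. Row 11 stood apart in the Rag1 compartment, with a median of 3684.5 UMIs against 14409 to 15274 in the other rows.

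Sox4, Tcf7, Tox and Lef1 were higher in every odd row than in any even row, while Satb1 was at a like level in both. Sox4 had 236, 311, 314 and 372 CPM in rows 11, 13, 15 and 17 and 12.9, 16.0, 14.5 and 13.6 CPM in rows 12, 14, 16 and 18. The 4 odd rows were thus all far above the 4 even rows, and the pooled level was 21.0-fold higher (18.7 to 23.7). Tcf7 had 415, 676, 750 and 932 CPM in the odd rows and 184, 193, 205 and 223 CPM in the even rows, a pooled ratio of 3.33 (3.22 to 3.45). Lef1 ranged from 218 to 297 CPM in the odd and from 90.2 to 126 CPM in the even rows, a ratio of 2.36 (2.26 to 2.47). Tox ranged from 107 to 176 CPM and from 47.2 to 59.0 CPM, a ratio of 2.42 (2.27 to 2.59). For none of these 4 genes did the odd and even rows overlap.

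The other 3 members did not reach a 2-fold difference between the pooled UMIs of the odd and even rows. Bcl11b did not overlap between odd rows (84.9 to 131 CPM) and even rows (62.1 to 76.1 CPM), at a ratio of 1.54 (1.45 to 1.64). Bach2 overlapped, with 23.2 to 34.1 CPM in the odd and 18.0 to 29.3 CPM in the even rows, and its log2 ratio of 0.38 rose to 1.20 when each cell was given the same weight and to 1.26 after thinning to 2000 UMIs per cell. Satb1 had 273 to 392 CPM in the odd and 315 to 362 CPM in the even rows, and the ratio of pooled levels was 0.942 (0.915 to 0.971). Its direction turned when each cell was given the same weight, to a log2 ratio of 0.56, and without the Cd79a and Cst3 compartments, to 0.60. With these compartments left out, 5 of 7 members had no overlap and a ratio of at least 2, beside 14.9% of genes, Bcl11b being added at 2.46-fold (2.31 to 2.62).

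A gene was called higher when all odd rows lay above all even rows and the pooled ratio was at least 2. By this rule 4 of 7 members were higher in the odd rows, beside 13.7% of the 8754 genes with at least 10 CPM over all assigned cells. The median log2 ratio, with 10 CPM added to both sides, was 1.14 over the members and 0.09 over all these genes. Scaling by TMM in place of total UMIs lowered each log2 ratio of odd over even by 0.23 and left the 4 calls in place.

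**Figure D1:**
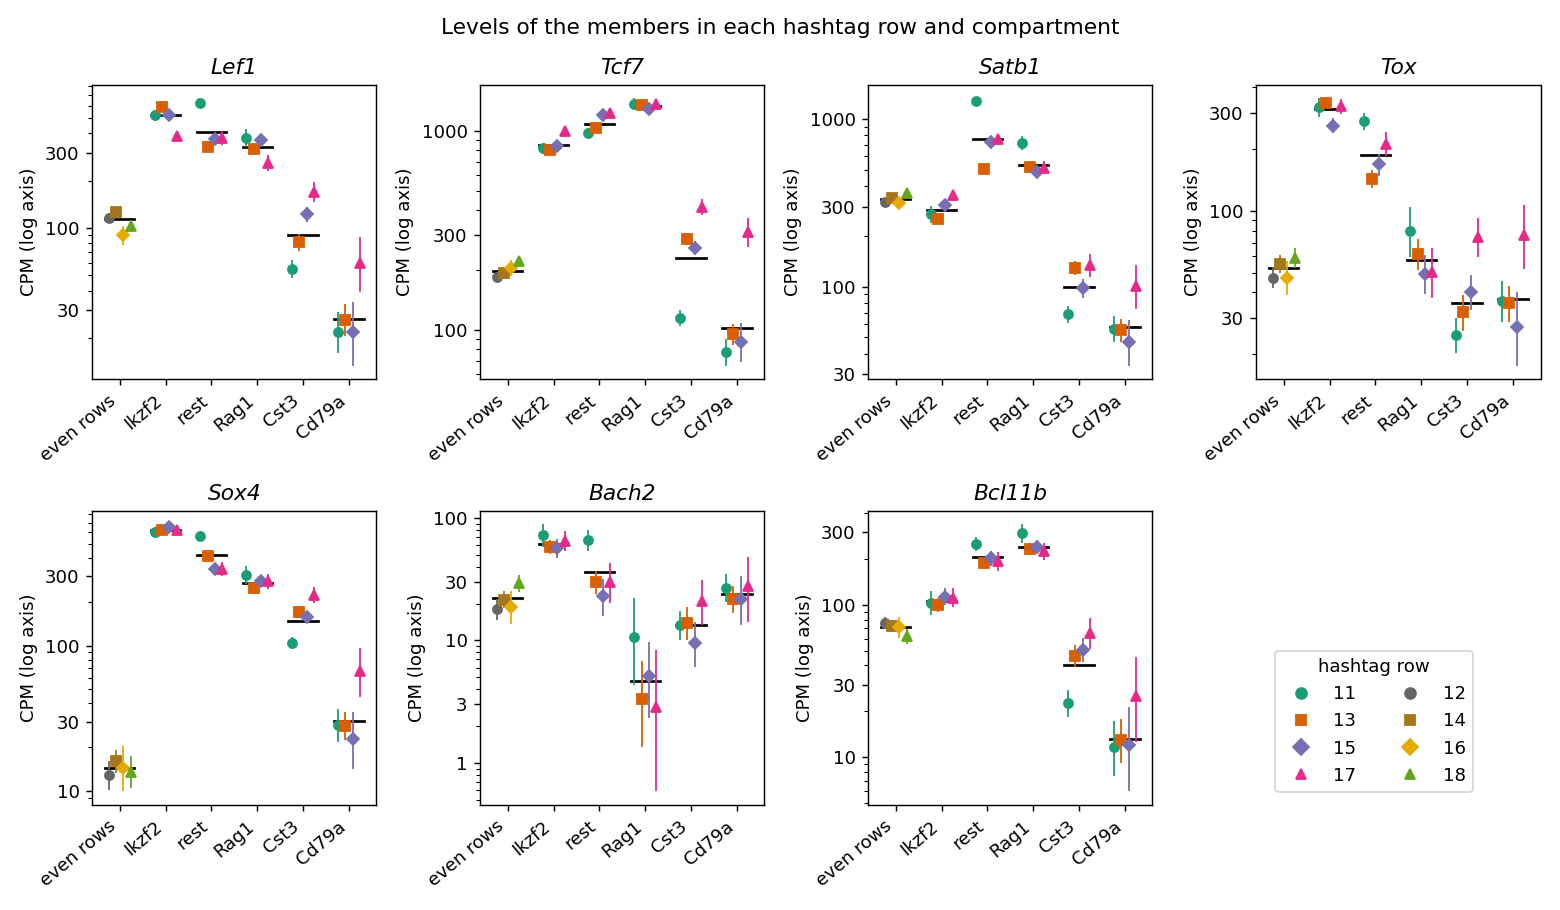
Level of each of the 7 genes in CPM (log axis) in the 4 even rows and in the 5 compartments of the odd rows. Each point is a hashtag row with its exact Poisson 95% interval and the black line is the level of the pooled cells. The even rows lie at the bottom of the Sox4 panel (12.9 to 16.0 CPM), while the Ikzf2 compartment is highest for Sox4, Lef1, Tox and Bach2 and the Rag1 compartment for Tcf7 and Bcl11b.

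Within the odd rows, the members fell into different orders by compartment. Sox4, Lef1, Tox and Bach2 had their highest pooled level in the Ikzf2 compartment, Tcf7 and Bcl11b in the Rag1 compartment, and Satb1 in the rest. The order of Sox4 was Ikzf2, rest, Rag1, Cst3, Cd79a and even rows, and no neighbours in this order overlapped in their rows. For Tcf7, the Rag1 rows lay above those of the rest, and the rows of the Ikzf2 compartment above those of the Cst3 compartment, while rest and Ikzf2 overlapped. For Lef1 the Ikzf2, rest and Rag1 rows overlapped with each neighbour, and all lay above the even rows.

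Among the HMG-box genes, Sox4 was steady over the rows of the Ikzf2 compartment, at 608, 621, 650 and 621 CPM in rows 11, 13, 15 and 17, and 43.6-fold (38.8 to 49.2) above the even rows. Tox had 319, 333, 260 and 323 CPM there, 5.90-fold (5.50 to 6.34) above the even rows. Lef1 had 522, 592, 526 and 387 CPM, 4.62-fold (4.39 to 4.86) above. Row 17 was thus the lowest for Lef1 and row 15 the lowest for Tox, yet each lay above every even row. Tcf7 had 818, 806, 838 and 998 CPM, 4.30-fold (4.14 to 4.47) above the even rows.

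Of the other factors, Bach2 had 72.0, 58.1, 56.5 and 65.3 CPM in the Ikzf2 compartment, 2.78-fold (2.44 to 3.16) above the even rows and without overlap. Bcl11b had 99.8 to 113 CPM, also without overlap but at 1.49-fold (1.37 to 1.62). Satb1 had 254 to 351 CPM and overlapped with the even rows, and its direction turned to a log2 ratio of 0.051 when the compartment was set at 1 UMI of Ikzf2. In all, 5 of 7 members were called higher in the Ikzf2 compartment than in the even rows, beside 13.8% of all genes tested. The median log2 ratio was 2.05 over the members and 0.17 over all genes, and TMM lowered each ratio by 0.33.

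The Rag1 compartment had the highest Tcf7, at 1365, 1357, 1291 and 1361 CPM in rows 11, 13, 15 and 17, which was 6.73-fold (6.47 to 6.99) above the even rows. Bcl11b had 293, 233, 240 and 224 CPM, 3.39-fold (3.14 to 3.65) above. Tox, at 49.1 to 79.9 CPM, overlapped with the even rows, with a ratio of 1.09 (0.959 to 1.23). Bach2 was the 1 member called lower here, beside 17.8% of genes, at 2.84 to 10.8 CPM and a ratio of 0.212 (0.137 to 0.314). Lef1 (2.89-fold) and Sox4 (18.8-fold) were also higher, so 4 of 7 members were called higher than in the even rows, beside 16.7% of genes. Satb1 did not overlap either, at a ratio of 1.58 (1.51 to 1.65). TMM lowered these log2 ratios by 0.16, and those of the rest over the even rows by 0.25.

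In the rest compartment 6 of 7 members were called higher than in the even rows, beside 14.8% of genes, with Bach2 as the exception. Markers of several cell types were also higher there, 4 of 4 of double-negative, 5 of 7 of double-positive and 2 of 2 of gamma-delta T cells, with Trdc at 146 to 266 CPM against 9.64 to 11.8 CPM in the even rows, and so were the myeloid marker Flt3 and the B cell marker Cd79b. The part of these cell types in the levels of the members was not tested. Satb1 had 1272, 501, 727 and 759 CPM in rows 11, 13, 15 and 17, and was 2.27-fold (2.19 to 2.35) above the even rows. Row 11 was the highest for Satb1 and also for Lef1 (629 CPM against 326 to 375), Tox (273 against 143 to 212), Sox4 (566 against 338 to 415), Bach2 (65.5 against 22.9 to 30.0) and Bcl11b (251 against 189 to 203). It was the lowest for Tcf7 (979 against 1034 to 1230). Cells of row 11 in this compartment had a median of 2859 UMIs, against 4847.5 to 7120 in the other rows. The part of depth in this difference was not tested.

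**Figure D2:**
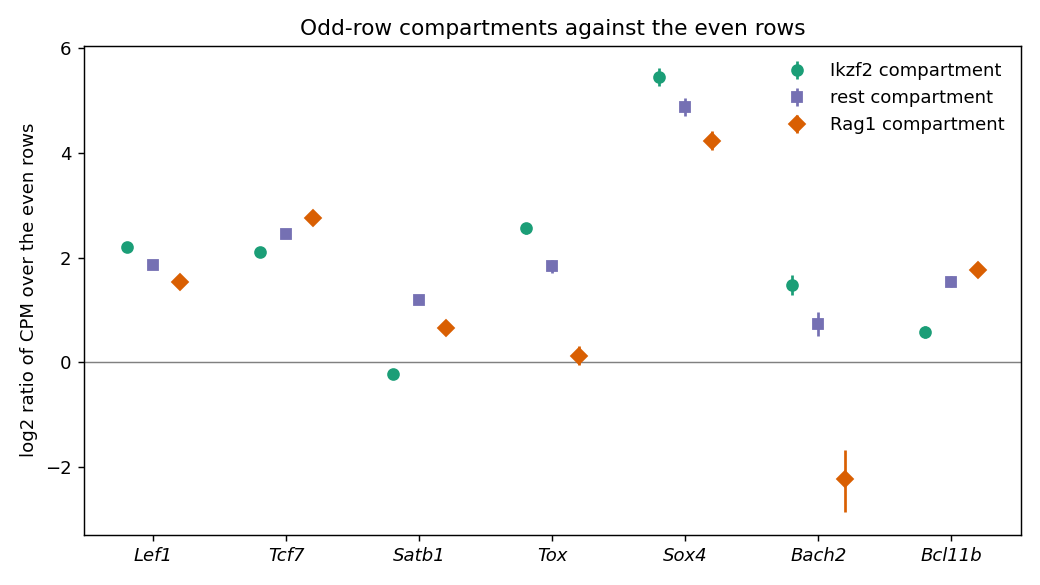
Log2 ratio of pooled CPM of the Ikzf2, rest and Rag1 compartments over the even rows for each of the 7 genes, with 95% intervals from counting error. Sox4 is the highest in all 3 compartments, Satb1 lies below 0 in the Ikzf2 compartment only, and Bach2 lies below 0 in the Rag1 compartment only.

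Set against each other within the same row, the Rag1 and Ikzf2 compartments differed in opposite directions for different members. Bcl11b was higher in the Rag1 compartment in 4 of 4 rows, at 2.27-fold (2.09 to 2.48). It was the 1 member called higher, beside 0.891% of genes, under a rule of the same direction in every row and a pooled ratio of at least 2, and it fell under that limit, to a log2 ratio of 0.92, when the compartment was set at 1 UMI of Ikzf2. Tcf7 (1.57-fold) and Satb1 (1.84-fold) were also higher in 4 of 4 rows but stayed under 2-fold. Satb1 passed 2-fold after TMM scaling, which raised these log2 ratios by 0.17. Tox, Sox4 and Bach2 were called lower in the Rag1 compartment, 3 of 7 members beside 11.0% of genes. Their pooled ratios were 0.185 (0.164 to 0.207), 0.431 (0.407 to 0.456) and 0.0762 (0.0493 to 0.113). Lef1 was lower in 4 of 4 rows too, at 0.625 (0.592 to 0.660).

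Between the rest and the Ikzf2 compartment, Satb1 was higher in the rest in 4 of 4 rows, at 2.64-fold (2.52 to 2.77), and was the 1 member called, beside 1.41% of genes. Bcl11b was 1.95-fold (1.79 to 2.12) higher in the rest and Tcf7 1.27-fold (1.23 to 1.31), each in 4 of 4 rows. After thinning to 2000 UMIs per cell the log2 ratios rose to 2.00 for Satb1 and 1.65 for Bcl11b, which then passed 2-fold. Tox, Sox4 and Bach2 were lower in the rest in 4 of 4 rows, at ratios of 0.603, 0.673 and 0.596. None of the 7 members was called lower there, beside 2.3% of genes. Lef1 was lower in the rest in 3 of 4 rows, at a ratio of 0.783, and this direction turned to a log2 ratio of 0.20 when each cell had the same weight.

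The Ikzf2 compartment was then divided by Mki67, a gene of cycling cells, into 398 cells with a UMI and 708 without. Sox4 had 821, 838, 1006 and 915 CPM in cells without Mki67 of rows 11, 13, 15 and 17, and 466, 454, 411 and 381 CPM in cells with it. All rows thus had less Sox4 in the Mki67 cells, at a pooled ratio of 0.484 (0.458 to 0.511). Bach2 (97.0 and 34.7 CPM), Tox (435 and 220 CPM) and Lef1 (634 and 444 CPM) were also lower in Mki67 cells in 4 of 4 rows. Bcl11b went the other way, from 67.3 to 134 CPM, higher in 4 of 4 rows at 1.99-fold (1.72 to 2.32). Tcf7 and Satb1 were higher in 3 of 4 rows, row 11 being the exception.

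Counting direction alone, 4 of 7 members were lower in every row, beside 31.4% of all genes, and 1 was higher, beside 21.1%. The Mki67 cells were deeper, with a median of 12108 UMIs against 4366.5. Among cells of 5000 to 12000 UMIs, where the medians were 8032 and 6843, Sox4 was still lower in the Mki67 cells, at 564 against 858 CPM. Tox (342 and 393 CPM), Bach2 (67.2 and 74.0 CPM) and Lef1 (588 and 593 CPM) were closer, and only Sox4 was lower in each row that kept at least 20 cells. Bcl11b (101 and 59.6 CPM) and Satb1 (259 and 150 CPM) were higher in Mki67 cells in each of those rows. Row 11 kept only 16 Mki67 cells, so these directions rest on rows 13, 15 and 17. The shares of all genes above do not apply to this window, and no result for the members as a set is read from it.

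**Figure D3:**
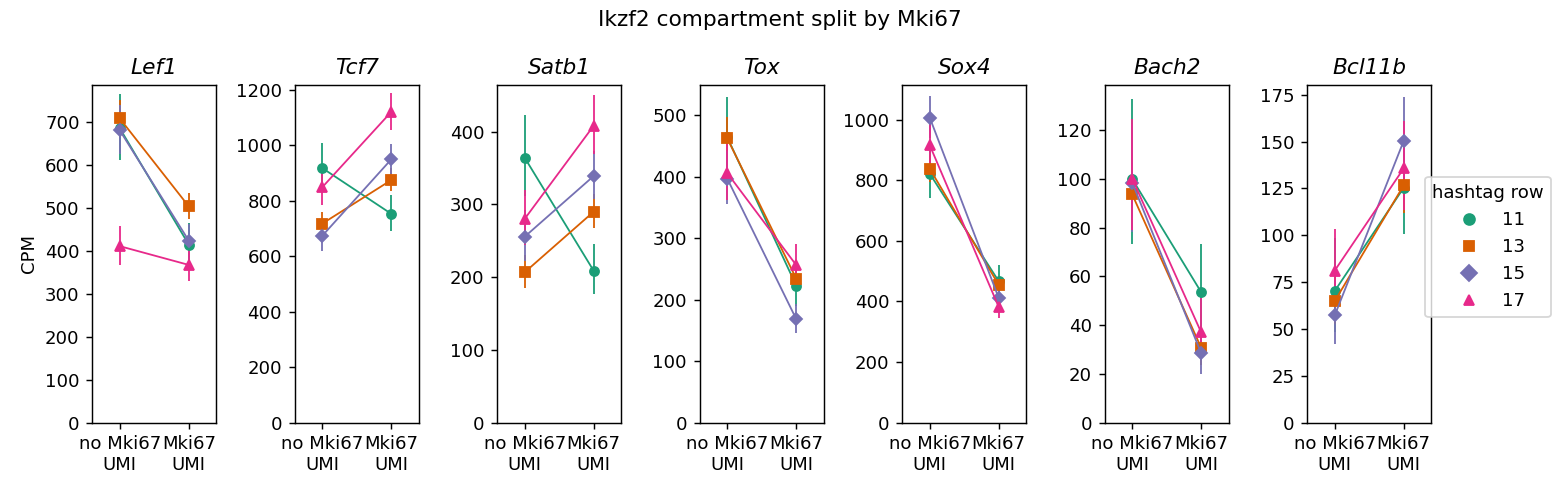
CPM of the 7 genes in cells of the Ikzf2 compartment without and with a UMI of Mki67, with a line for each of the 4 odd rows and exact Poisson 95% intervals. The lines of Lef1, Tox, Sox4 and Bach2 fall in all 4 rows and those of Bcl11b rise, while row 11 runs against the other rows for Tcf7 and Satb1.

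In the Rag1 compartment a split by Cd8a, the gene of a coreceptor chain gained at the double-positive stage, gave differences under 1.5-fold for all members but Bach2. Tcf7 was higher in the 224 cells with a Cd8a UMI than in the 194 without it in 4 of 4 rows, at 1377 and 1285 CPM, a ratio of 1.07 (1.02 to 1.12). Bach2 had 2.19 CPM with Cd8a and 7.97 CPM without, a ratio of 0.275 (0.0975 to 0.682) that rests on 26 UMIs in all. Satb1 was 1.23-fold (1.14 to 1.32) higher with Cd8a, in 3 of 4 rows. For Lef1, Tox, Sox4 and Bcl11b the interval of the ratio included 1.

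Among the even rows, 1225 cells with Izumo1r and no Ccl5 were set against 910 cells with at least 5 UMIs of Ccl5. Tox had 67.0, 76.0, 69.1 and 81.6 CPM in the Izumo1r cells of rows 12, 14, 16 and 18, and 32.8, 32.5, 40.2 and 26.1 CPM in the Ccl5 cells. The subsets did not overlap, and the pooled ratio was 2.32 (1.87 to 2.89). Satb1 (1.37-fold), Bach2 (1.42-fold) and Lef1 (1.22-fold) were also higher in the Izumo1r cells in 4 of 4 rows, so 4 of 7 members were higher in every row, beside 13.8% of genes. Tcf7 was higher in 3 of 4 rows, at 1.10-fold (0.993 to 1.21), and Sox4 and Bcl11b had intervals that included 1. The median depth was 3548 UMIs in the Izumo1r and 3531.5 UMIs in the Ccl5 cells.

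Per cell, a member was counted as detected when it had at least 1 UMI after each cell had been thinned to 2000 UMIs, which left out 552 of the even-row cells and 53 of the Ikzf2 compartment. Sox4 was detected in 70.4% of Ikzf2 cells (92.0% before thinning), 51.6% of the rest, 45.2% of Rag1 cells and 2.79% of even-row cells (4.45% before thinning). In the Cd79a compartment Sox4 was detected in 2.90% of cells, so the share in the even rows did not exceed that in B lineage cells and is not read as expression. The ratios of Sox4 over the even rows rest on that low level. Tox was detected in 45.7% of Ikzf2 cells, 12.1% of Rag1 cells, 8.70% of even-row cells and 7.19% of Cd79a cells. Bach2, a gene that B cells are known to use, was detected in 15.9% of Ikzf2 cells, 1.80% of Rag1 cells and 6.18% of Cd79a cells. Before thinning the median depth of the Cd79a compartment was 6002.5 UMIs.

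Tcf7 and Bcl11b again had their highest share in the Rag1 compartment, at 86.9% and 39.1% of cells, against 71.3% and 13.8% of Ikzf2 cells. Satb1 was detected in 34.7% of Ikzf2 cells, fewer than the 45.4% of even-row cells. The median number of members detected in a cell was 3 in the Ikzf2, Rag1 and rest compartments, 1 in the even rows and 0 in the Cd79a and Cst3 compartments. At least 4 members were detected together in 34.9% of Ikzf2 cells, 33.9% of Rag1 cells, 40.7% of the rest and 1.59% of even-row cells.

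**Figure D4:**
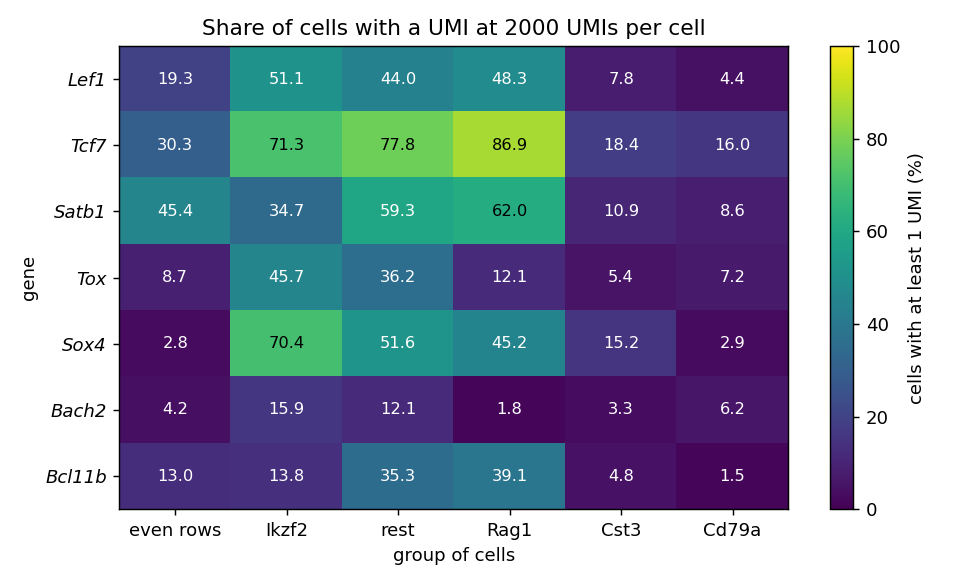
Share of cells (%) with at least 1 UMI of each gene after thinning to 2000 UMIs per cell, for the even rows and the 5 compartments of the odd rows. Sox4 runs from 2.8% in the even rows to 70.4% in the Ikzf2 compartment, while the Cd79a compartment has low shares of all members.

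The antisense gene Lef1os1 was followed with Lef1. It had 185, 159, 140 and 78.3 CPM in the Ikzf2 compartment of rows 11, 13, 15 and 17, against 8.66 to 10.1 CPM in the even rows, a 15.0-fold (12.9 to 17.6) higher level. Its ratio was thus larger than that of Lef1 itself. Of all UMIs of both genes, Lef1os1 made up 21.3% in the Ikzf2 compartment (20.2 to 22.3, Clopper-Pearson), 16.5% in the rest, 12.1% in the Rag1 compartment (10.8 to 13.6) and 7.66% in the even rows (6.65 to 8.76). Over rows, the share was 16.9 to 26.1% in the Ikzf2, 10.6 to 12.7% in the Rag1 compartment and 7.11 to 10.0% in the even rows, and these 3 ranges did not overlap. The rows of the rest (14.2 to 19.3%), Cst3 (13.7 to 20.6%) and Cd79a compartments (4.76 to 27.6%) overlapped with those of the Ikzf2 compartment. As the Lef1 window shown above lies within Lef1os1, the antisense gene reaches past the start of Lef1.

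**Figure D5:**
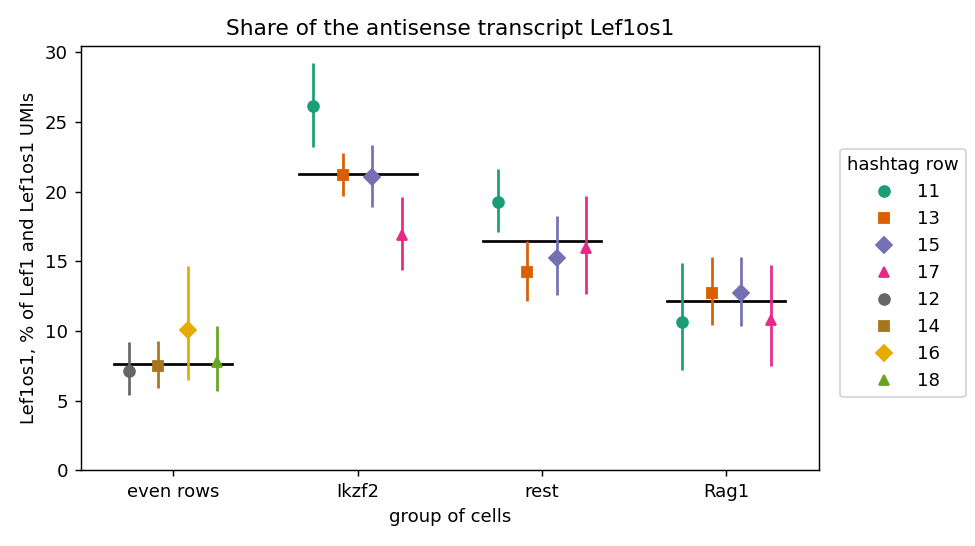
Lef1os1 as a percentage of the UMIs of Lef1 and Lef1os1 together, by hashtag row, with Clopper-Pearson 95% intervals; the black line is the pooled share. All 4 rows of the Ikzf2 compartment (16.9 to 26.1%) lie above the Rag1 compartment (10.6 to 12.7%) and the even rows (7.11 to 10.0%).

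In the Cd79a and Cst3 compartments the pooled levels of the members were lower than in the other odd-row compartments, with the exception of Bach2, which was lowest in the Rag1 compartment. Tcf7 had 77.7, 95.4, 87.1 and 310 CPM in Cd79a cells of rows 11, 13, 15 and 17, and row 17 was also the highest for Lef1, Satb1, Tox, Sox4, Bach2 and Bcl11b. In that row, which held 58 such cells, the T cell genes Cd3d, Cd3e, Cd3g, Trbc2 and Lck summed to 722 CPM, against 293 to 357 CPM in the other rows. In the Cst3 compartment these genes summed to 528, 870, 921 and 1442 CPM in rows 11, 13, 15 and 17, and the 7 members to 404, 760, 737 and 1103 CPM. The part of T cell RNA in the levels of the members in these compartments was not tested. Sox4 in the Cst3 compartment, at 104 to 223 CPM, lay above the even rows in every row.

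Other genes of the same families were read from lists. Of 13 HMG paralogs 6 passed the filter. Hmgb1, Hmgb2 and Hmgb3, which encode general DNA-bending proteins, were higher in the Ikzf2, Rag1 and rest compartments than in the even rows. These 3 of 6 stand beside 13.8%, 16.7% and 14.8% of all genes. Hbp1 was lower in the Rag1 compartment, beside 17.8% of genes. In Mki67 cells of the Ikzf2 compartment Hmgb1 and Hmgb2 were higher by at least 2-fold in 4 of 4 rows, as were 451 of 8754 genes. Hbp1 was lower in them. Hmgb3 had 111 to 140 CPM in the Ikzf2 compartment and 17.2 to 19.0 CPM in the even rows. Of 15 genes of Wnt signalling partners 10 passed the filter. Bcl9, a β-catenin adaptor, was higher in the Ikzf2 compartment (15.3 to 25.4 CPM) than in the even rows (5.78 to 7.22 CPM), while Tle4, a corepressor, was lower (40.4 to 46.0 against 103 to 112 CPM), and so was Bcl9l (11.7 to 15.3 against 46.4 to 62.9 CPM). Of the 10 partners 1 was thus higher and 2 were lower, beside 13.8% and 9.23% of all genes. Their median log2 ratio was 0.08, against 0.17 over all genes, so no result for the partners as a set is read from these genes. Of the Bach partners Mafk, Mafg, Maff and Nfe2l2, 3 passed the filter and 0 were called in this comparison.

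Of 23 further T lineage factors 20 passed the filter. Among these, Runx1, Ets2, Myb, Tcf3 and Id3 were higher in the Ikzf2 compartment than in the even rows, beside 13.8% of all genes. Runx3, Zbtb7b, Id2, Tbx21, Zbtb16 and Klf2 were lower, beside 9.23%. The median log2 ratio of these factors was 0.16, against 0.17 over all genes, so no result for them as a set is read. Of 12 chromatin factors 6 were higher, Smarca4, Smarcb1, Hdac1, Ezh2, Dnmt1 and Dnmt3a, and 0 lower, beside 13.8% and 9.23% of all genes. Of these, Ezh2 and Dnmt1 were also higher in the Mki67 cells of this compartment, by at least 2-fold and in 4 of 4 rows. The median log2 ratio of the chromatin factors was 0.83, below the 2.05 of the members.

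Over the 24 groups of compartment and row, the level of each member was set beside that of every other gene by Pearson's r of log2(CPM + 10). These groups share a library and differ in depth, so r is a description. They include the Cd79a and Cst3 compartments, where the pooled T cell genes summed to 353 and 811 CPM, against 3668 to 4717 CPM elsewhere. The part of this contrast in r was not tested. Lef1 and Tcf7 differed in opposite directions between the Rag1 and Ikzf2 compartments in 4 of 4 rows, at ratios of 0.625 and 1.57. Satb1 was most like Bcl11b among the members (r = 0.94), Tcf7 was like Bcl11b (0.93) and Lef1 like Tcf7 (0.92). Bach2 stood apart, with r of 0.05 to Tcf7 and -0.06 to Bcl11b, and 0.76 to Tox. Among all genes, those most like Sox4 were 2610307P16Rik (0.99), Prdx2 (0.98) and Myb (0.98), and those most like Tox were Rasgrp1 (0.95), Sptbn1 (0.93) and Itm2a (0.92). Tcf7 was nearest to Hnrnpl, Nop58 and Ncl (all 0.98), Lef1 to Csnk1a1, Eif4g2 (both 0.97) and Zfp644 (0.96), and Bcl11b to Prps2, Serbp1 and Lgals9 (all 0.97). Satb1 was nearest to Impdh1 (0.96), Cd247 and Lat (both 0.95), and Bach2 to 1500011B03Rik, Egr2 (both 0.87) and Elk3 (0.86). With 1 CPM added in place of 10, 1500011B03Rik fell to place 15 for Bach2, Lgals9 to place 11 for Bcl11b, Zfp644 to place 7 for Lef1, and Itm2a and Elk3 to place 6 for Tox and Bach2.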

How the data were processed

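The authors deposited UMI counts per gene and hashtag, not normalized, made with Cell Ranger on the mm10 reference (per the labels and methods). The members and gene lists were chosen with earlier results of these data known. Barcodes under 1000 genes or above 5% mitochondrial UMIs were removed, and the others were assigned to the hashtag row with at least 80% of at least 10 hashtag UMIs on rows 11 to 18, which also removes hashtag doublets. No other doublet caller was run. Rows 11 to 18 held 99.9% of hashtag UMIs. Rows held 2283162 to 14601545 gene UMIs. Counts were summed per row and compartment and divided by total gene UMIs (CPM), with genes of at least 10 CPM over all assigned cells compared. Compartments in a row needed 20 cells. Named genes were the 7 members, the 3 genes most like each and the lists, of which 1 result is not reported here. Alternatives covered cell filters, hashtag limits, TMM (edgeR 4.0.16), equal weight per cell, thinning, compartment limits and leaving out each row. Cells of one row are not replicates, and no p-value was computed. Analyses used Python 3.11.15, scipy 1.17.1 and R 4.3.3.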

Additional observations from a re-analysis of the deposited data

Results flagged for a closer look

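In 9 of the 49 sets of 4 rows, one per member and group, the highest or lowest row stood far from the other rows by Dixon's criterion, which chance alone gives in about 1 of 20 sets. Row 17 of the Cd79a compartment stood apart for Lef1 (59.7 CPM against 21.8 to 26.1), Tcf7 (310 against 77.7 to 95.4), Sox4 (66.6 against 22.9 to 28.4) and Bcl11b (25.3 against 11.6 to 13.0). Row 11 stood apart in the rest compartment for Lef1 (629 CPM against 326 to 375) and Bach2 (65.5 against 22.9 to 30.0), and in the Rag1 compartment for Satb1 (719 against 485 to 517). Tcf7 was low in row 15 of the Rag1 compartment (1291 CPM against 1357 to 1365) and high in row 17 of the Ikzf2 compartment (998 against 806 to 838). The criterion takes no account of counting error. The sets are not independent, since the members were read from the same cells, 58 of them in row 17 of the Cd79a compartment. The number of flagged sets is therefore not read as an excess over that rate. The Poisson interval of Tcf7 in row 15 of the Rag1 compartment (1238 to 1345 CPM) overlapped those of the other rows. So did that of Bcl11b in row 17 of the Cd79a compartment (12.6 to 45.2 CPM).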

How the results depend on the processing

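Over 21 settings, 549 of 770 log2 ratios stayed within their counting interval, 209 moved and 12 turned direction, and 201 of 220 counts of called members stayed within 1.5 times. Between odd and even rows, Satb1 turned to 0.56 with equal weight per cell, 0.45 after thinning and 0.60 without the Cd79a and Cst3 cells, and ranged from -0.14 to 0.029 (without row 13) as rows were left out. Satb1 in the Ikzf2 compartment over the even rows turned to 0.051 with Ikzf2 at 1 UMI. Lef1 in the rest over the Ikzf2 compartment turned to 0.20 with equal weight and 0.11 after thinning. Satb1 in Mki67 cells turned to -0.13 and -0.041 under the same settings. In Izumo1r over Ccl5 cells Sox4 turned to -0.26 after thinning, Bcl11b ranged from -0.20 to 0.020 (without row 12) and Tcf7 from -0.0021 (without row 18) to 0.18. Members called higher in the Rag1 over the Ikzf2 compartment rose from 1 to 2 with at most 4000 genes, TMM, equal weight or thinning, and fell to 0 with Ikzf2 at 1 UMI. Those higher in the rest rose to 2 under the same 4 settings, with 500 genes and 10% mitochondrial counts, and with Cd79a at 1 and Cst3 at 2 UMIs, and ranged from 1 to 2 as rows were left out (2 without row 15 or row 17). Those lower in the rest ranged from 0 to 1 (without row 11). Among Mki67 cells the members higher in every row were 0 with at most 4000 genes, 2 among cells of 5000 to 12000 UMIs and 1 to 3 as rows were left out (3 without row 11), and those lower were 2 after thinning and 1 among cells of 5000 to 12000 UMIs. That window and the odd rows without Cd79a and Cst3 cells were chosen after seeing the data. With genes from 1 CPM in place of 10, 20.2% of 12389 genes were called higher in the odd rows. The cause of these changes was not tested. No paired analysis was possible because no row could be tied to a labelled replica, and comparisons within rows were made with no test. With 1 library, precision beyond counting error is unknown.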
